A study of Mus musculus with 14 samples.

Results

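The genes described here encode the nuclear subunits of the mitochondrial respiratory chain and the ATP synthase. They were chosen by gene symbol alone: all symbols that start with Nduf, Uqcr, Cox4i, Cox5, Cox6, Cox7, Cox8 or Atp5, and the 4 succinate dehydrogenase genes Sdha, Sdhb, Sdhc and Sdhd. Of the 19937 genes that had a probe set of their own on the array, 89 met this rule. Where several probe sets carried a gene's symbol, the brightest on average was taken. By symbol, 43 of the 89 belong to complex I, including 7 assembly factors, 4 to complex II, 8 to complex III, 17 to complex IV and 17 to complex V. The testis isoform Cox7b2 stayed below the filter on low values on every array (4.70 to 5.14 on the log2 scale), so that 88 members were tested. Another 4 genes with a matching symbol, Cox7c, Ndufb4, Ndufb4b and Ndufs5-ps, were named only by probe sets shared with other genes and were not analysed here.

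Complex I takes electrons from NADH and complex II takes them from succinate; both pass them to coenzyme Q, and complex III and complex IV carry them on to oxygen. Complexes I, III and IV pump protons across the inner membrane, and the ATP synthase, complex V, lets the protons flow back through its rotating c ring to make ATP. Resting T cells are known to rely largely on this machinery, whereas dividing T cells and thymocytes also use glycolysis.

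Expression was measured on 14 Affymetrix arrays, each with RNA of flow-sorted T cells from C57BL/6 mice, either wild type (WT) or labelled ENK KO. What ENK stands for is not written out in the labels; the title of the series names Engrailed-2, a homeobox transcription factor, and neither the allele nor the way it was made is given in the sources used here. Immature CD4+CD8+ thymocytes from the thymus made up 3 WT and 2 ENK KO samples, and CD8+ T cells from the spleen 4 WT and 5 ENK KO samples. The labels do not say outright that each came from another animal, and every p-value is against the spread among samples, which may be partly technical. The series was designed to compare the genotypes within each population, and both genotypes also allow the populations to be compared. All WT samples came from animals 7 months old (replicates 38, 7 and 32 in thymus, and 40, 37, 34 and 22 in spleen). The ENK KO thymus samples came from animals of 7 and 2 months (replicates 29 and 1), and the ENK KO spleen samples from animals of 7, 2, 6, 9 and 2 months (replicates 31, 6, 28, 25 and 3). Samples labelled female were thymus WT replicate 7, spleen WT replicate 22 and the 3 ENK KO samples from animals aged 2 months; all others were labelled male. In every sentence below, the values of a group follow this order of replicates, which has no meaning of its own.

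All values are log2 expression values made by the authors with RMA, which normalizes the arrays of a run to each other. A difference of 1 is a doubling relative to the other transcripts of the array. It is unknown whether the thymus and spleen arrays went through the same run. A common scale for the tissues is therefore assumed in every tissue comparison below and was not established. Levels of different probe sets are not comparable, and no detection call was used here. The array medians lay between 7.14 and 7.25, and a value near or below them does not show that a transcript was present. The labelled populations were checked against Cd4 and Cd8a, the coreceptor genes that define them. Cd4 read 12.94 to 13.13 in WT thymus and 6.62 to 6.92 in WT spleen, and Cd8a read 12.89 to 13.08 and 12.06 to 12.52. The library labelled spleen ENK KO replicate 28 went against its label, with Cd4 at 12.20, Cd8a at 6.78 and Foxp3, the regulatory T cell factor, at 9.87, and values without it are given beside the results of the ENK KO spleen group. The authors' table also repeated values: 15.4% of its 28213 probe sets had 1 and the same value on all 3 WT thymus arrays, and 30.5% on both ENK KO thymus arrays. Of the 89 members this held for 10 in WT thymus and 12 in ENK KO thymus, which gave an SD of 0 there, and for 0 over a whole spleen group. Repeats were not limited to the thymus, since 81.2% of the probe sets had the same value on some 2 of the 14 arrays, and Ndufaf4 read 7.68 on several spleen arrays of both genotypes. Repeated values can make the spread look smaller than it was, so the SE and p-values of such members, among them Ndufs5, Ndufaf4 and Sdhc, are less certain than printed. In bulk RNA of this kind, fewer cells of a type and less RNA per cell cannot be told apart.

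In WT mice, respiratory subunits were both higher and lower in splenic CD8+ T cells than in thymocytes. Of the 88 members, 20 were higher in spleen and 33 lower at an adjusted p under 0.05 in limma, a total of 53 (60.2%), and the other 35 did not pass. Across all 13641 genes tested the same comparison called 68.6%, of which 30.5% of genes were higher and 38.2% lower, so that the share of members called was no larger than that of genes at large. The median difference was -0.09 for the members and -0.04 for all genes, and their order was not stable. It was -0.03 and -0.04 without thymus WT replicate 7, -0.06 and -0.05 without spleen WT replicate 40, -0.05 and -0.05 with array weights, and -0.01 and -0.03 after quantile normalization, where 22 members rose and 26 fell. The members' differences ran from -1.02 to 0.95, and 16 of the 88 exceeded 0.5 in size. The WT groups did not overlap for 20 members that were higher in spleen and 35 that were lower, against 32.6% and 39.2% of all genes. By complex, 7 members of complex I rose and 21 fell of 43, 0 rose and 3 fell of 4 in complex II, 2 rose and 1 fell of 8 in complex III, 6 rose and 3 fell of 16 in complex IV, and 5 rose and 5 fell of 17 in complex V. The median difference was -0.12 in complex I and -0.17 in complex II, and 0.01, 0.04 and 0.01 in complexes III, IV and V. The signs of the last 3 medians were not stable, since leaving out single arrays moved them from -0.02 to 0.04, from -0.01 to 0.16 and from -0.08 to 0.09. The lower ends came without thymus WT replicate 32 (complexes III and V) or 38 (complex IV), and the upper ends without thymus WT replicate 7.

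**Figure D1:**
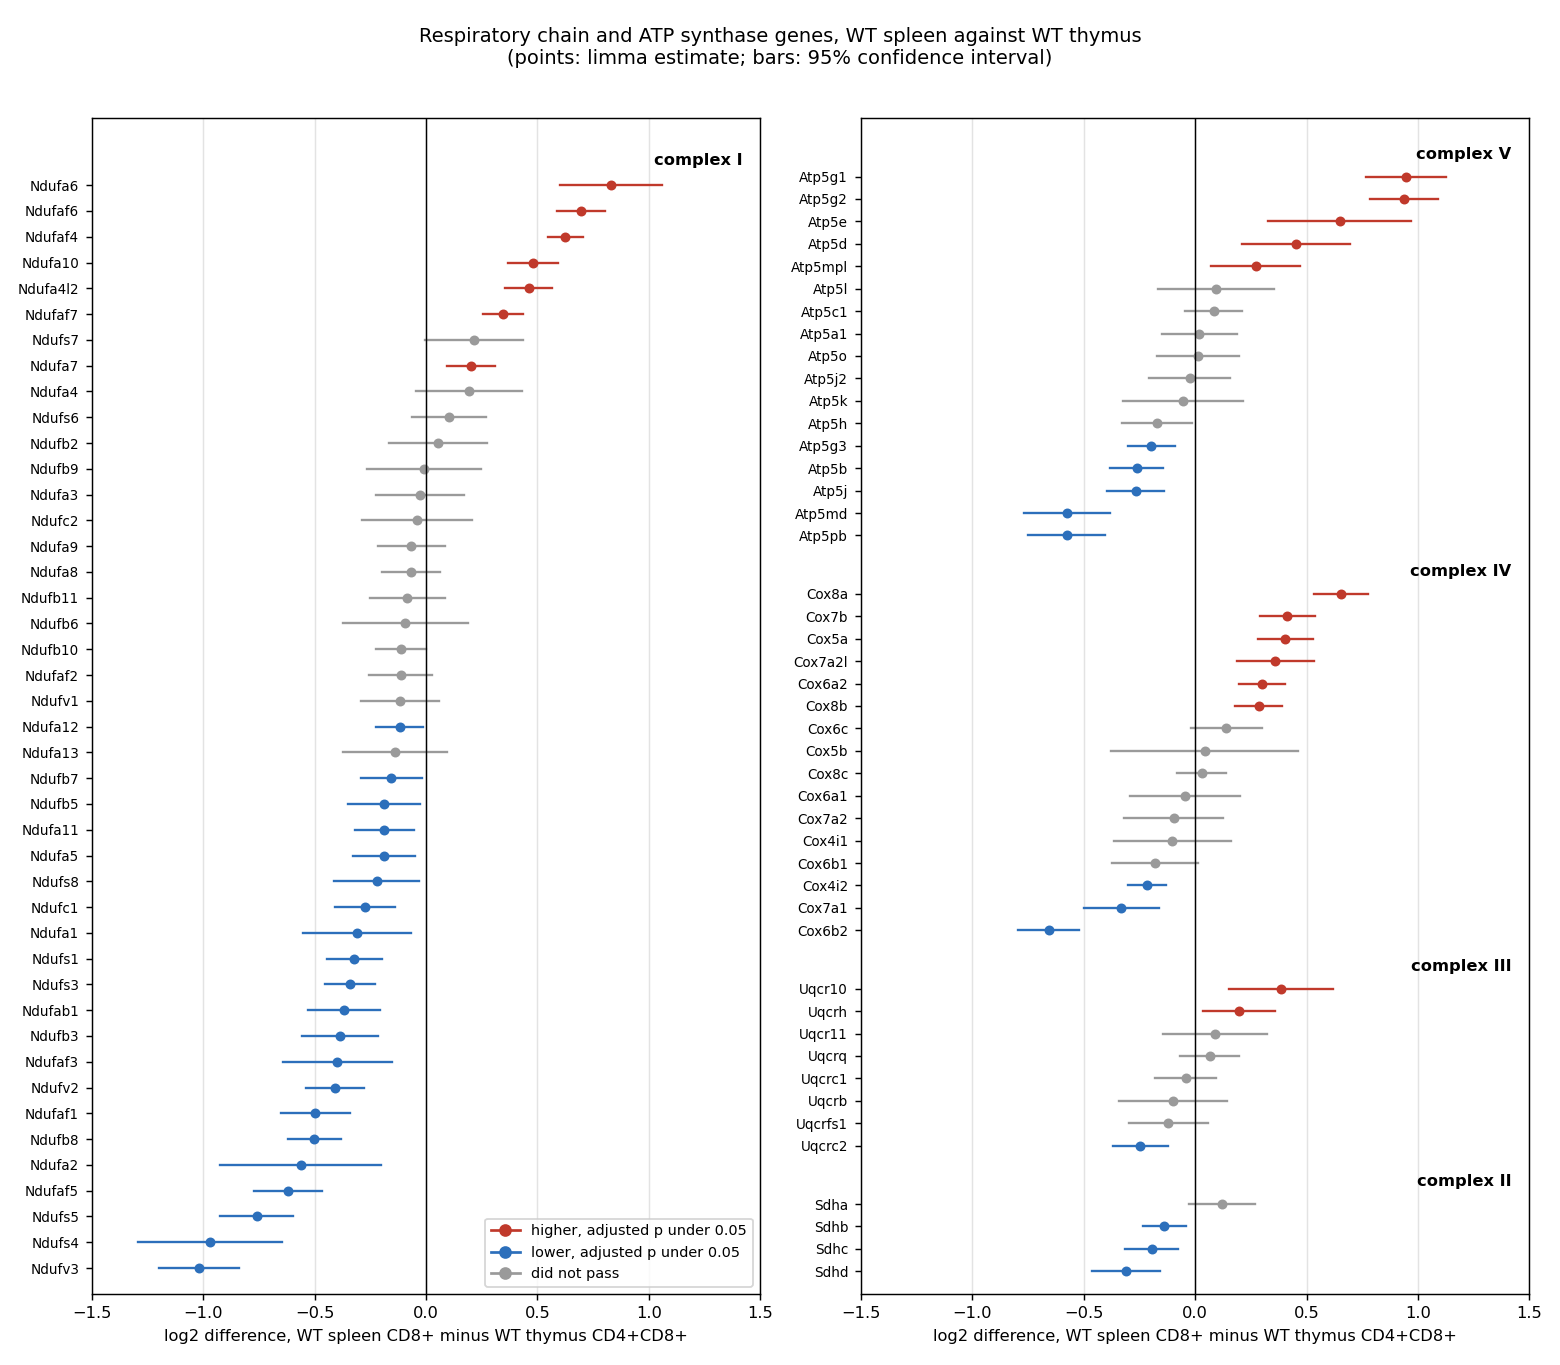
Log2 difference between WT spleen CD8+ T cells (n = 4) and WT thymus CD4+CD8+ cells (n = 3) for the 88 tested members, grouped by complex, with the limma estimate as a point and its 95% confidence interval as a bar. Red marks the 20 members that were higher and blue the 33 that were lower at an adjusted p under 0.05, and grey the 35 that did not pass; most of complex I lies to the left of 0, while the ends of complex V lie far apart.

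The c ring of the ATP synthase held the largest increases of the whole set. Its subunit c is encoded by 3 genes, Atp5g1, Atp5g2 and Atp5g3, whose products differ in the import sequence and share the same mature protein. Atp5g1 and Atp5g2 rose in WT spleen and Atp5g3 fell. Since these genes moved apart, their upstream promoters are printed here, with those of Ndufa6 and Sdhb, described below, for comparison. Each line gives the 250 bases upstream of the gene's start on the gene's strand, 5' to 3', from RefSeq (GRCm38.p6). The capitals mark 7-letter cores of binding motifs for factors known to drive respiratory genes.
Atp5g1: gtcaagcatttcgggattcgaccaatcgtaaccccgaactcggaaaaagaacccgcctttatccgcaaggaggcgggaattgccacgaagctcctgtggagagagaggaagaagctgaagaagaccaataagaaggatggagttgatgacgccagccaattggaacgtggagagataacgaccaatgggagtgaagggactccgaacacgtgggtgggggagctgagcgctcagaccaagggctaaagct
Atp5g2: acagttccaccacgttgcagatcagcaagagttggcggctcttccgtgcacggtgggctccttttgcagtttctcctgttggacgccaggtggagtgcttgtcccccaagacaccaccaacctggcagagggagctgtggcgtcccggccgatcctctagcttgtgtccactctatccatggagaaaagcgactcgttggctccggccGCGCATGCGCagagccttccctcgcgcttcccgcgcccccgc
Atp5g3: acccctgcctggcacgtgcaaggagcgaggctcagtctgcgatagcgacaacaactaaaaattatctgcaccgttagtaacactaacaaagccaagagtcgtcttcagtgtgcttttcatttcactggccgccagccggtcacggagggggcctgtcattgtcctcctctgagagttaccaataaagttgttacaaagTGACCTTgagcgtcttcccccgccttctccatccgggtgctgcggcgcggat
Ndufa6: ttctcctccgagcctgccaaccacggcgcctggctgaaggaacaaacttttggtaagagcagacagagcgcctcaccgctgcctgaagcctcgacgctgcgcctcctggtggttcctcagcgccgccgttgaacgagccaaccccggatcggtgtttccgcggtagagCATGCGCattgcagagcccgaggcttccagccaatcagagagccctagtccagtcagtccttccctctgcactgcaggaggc
Sdhb: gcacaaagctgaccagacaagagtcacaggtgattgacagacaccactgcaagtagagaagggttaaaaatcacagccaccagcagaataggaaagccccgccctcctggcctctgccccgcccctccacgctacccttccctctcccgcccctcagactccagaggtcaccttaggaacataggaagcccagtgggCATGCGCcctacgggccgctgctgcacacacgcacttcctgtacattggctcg

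These stretches lie at chr11:96075632-96075881 (minus strand) for Atp5g1, chr15:102671048-102671297 (minus strand) for Atp5g2, chr2:73911327-73911576 (minus strand) for Atp5g3, chr15:82354292-82354541 (minus strand) for Ndufa6 and chr4:140961021-140961270 (plus strand) for Sdhb. Atp5g2, Ndufa6 and Sdhb were taken from the members that the rule for named genes picked in the WT comparison and that held a core of nuclear respiratory factor 1 (NRF1), by size of difference in each direction. Atp5g1 and Atp5g3 were added after their values were seen, to complete the c ring. Other members also held this core, among them Ndufaf5, an assembly factor with a larger fall than Sdhb. The cores searched, on both strands, were CATGCGC for NRF1, CCGGAAG for ETS factors such as GABP, AAGATGG for YY1 and AAGGTCA for estrogen-related receptors (ERR); the ETS and YY1 cores can overlap in AAG. In Atp5g2 the NRF1 core was found on both strands in 1 overlapping palindrome, 42 bases before the start. Ndufa6 held the core 82 bases and Sdhb 53 bases before the start. Atp5g3 held an ERR core on the opposite strand, 52 bases before the start, and Atp5g1 held none of the 4 cores in this stretch.

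Promoter windows of 300 bases (250 before to 50 after the start) were in the RefSeq table for 73 of the 89 members, as 78 windows. The NRF1 core was in 15 of the 78 (19.2%), against 3.91% of all 32851 windows of the table, and the ETS core in 18 (23.1%), against 8.86%. The YY1 core was in 12.8% of the members' windows and 6.34% of all, and the ERR core in 8.97% and 4.72%. Among windows of members that were higher in WT spleen, 3 of 18 held the NRF1 core, among those lower 4 of 30, and among those that did not pass 8 of 29. A match is a sequence of letters and was not measured as a bound site.

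Atp5g1 read 10.67, 10.59 and 10.59 in WT thymus and 11.77, 11.62, 11.40 and 11.46 in WT spleen. In ENK KO it read 10.56 and 10.54 in thymus and 11.38, 11.50, 11.26, 11.31 and 11.44 in spleen. Every spleen array of either genotype lay above every thymus array. The WT group means of 10.62 ± 0.05 (SD, n = 3) and 11.56 ± 0.17 (SD, n = 4) differed by 0.95 (SE 0.08), which is 1.93-fold higher in spleen at an adjusted p of 3.75e-07 in limma.

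Atp5g2 read 10.86, 11.00 and 10.75 in WT thymus and 11.67, 11.79, 11.82 and 11.96 in WT spleen, with 10.76 and 10.86 in ENK KO thymus and 11.75, 11.71, 11.66, 11.75 and 11.68 in ENK KO spleen. Again the tissues did not overlap. The rise of 0.94 (SE 0.07; 1.91-fold, adjusted p = 7.97e-08 in limma) was about as large as that of Atp5g1. Atp5g3 went the other way, from 10.96, 11.02 and 10.87 in WT thymus to 10.75, 10.75, 10.78 and 10.75 in WT spleen. This fall of 0.20 (SE 0.05; 1.15-fold, adjusted p = 0.00317 in limma) was small, and after quantile normalization of the deposited values it no longer passed (-0.09, adjusted p = 0.114). A second probe set of Atp5g1, with a mean of 6.89, near the filter level of 6.76, differed by -0.29, the opposite sign, whereas the other probe sets of Atp5g2 differed by 0.51 and 0.37, the same sign as the one used.

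The other parts of the ATP synthase were split as well. Of the 5 members of the catalytic F1 head, 2 rose and 1 fell, and these 3 are named after their values were seen: Atp5e, the epsilon subunit (0.65, SE 0.15), Atp5d, the delta subunit (0.45, SE 0.11), and Atp5b, the catalytic beta subunit (-0.26, SE 0.06). Of the 4 members of the peripheral stalk, which holds the head still against the turning ring, 0 rose and 2 fell. The larger fall was that of Atp5pb, the b subunit, which read 10.37, 10.47 and 10.22 in WT thymus and 9.85, 9.76, 9.78 and 9.72 in WT spleen. It lay lower on all 4 spleen arrays and fell by 0.58 (SE 0.08; 1.49-fold, adjusted p = 2.98e-05 in limma). Atp5md, a small membrane subunit also known as DAPIT, fell by the same amount, from 10.90, 10.80 and 10.72 to 10.32, 10.28, 10.26 and 10.06, again without overlap (SE 0.09, adjusted p = 7.29e-05 in limma). With the mean of its probe sets in place of the brightest one, its fall was 0.43 and did not pass (adjusted p = 0.0510).

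Complex I leaned towards lower levels in WT spleen, with 32 of 43 members below 0, called or not, against 54.1% of all genes. Of its 6 core subunits on the array, among them those that carry the flavin and iron-sulfur clusters, 0 rose and 4 fell. Of 29 accessory subunits 3 rose and 14 fell. Of all genes 30.5% rose and 38.2% fell, the shares to set beside every count of this kind in the WT comparison. The 4 core subunits that fell, named after their values were seen, were Ndufv2 (-0.41), Ndufs3 (-0.34), Ndufs1 (-0.32) and Ndufs8 (-0.22). The largest fall of any member was that of Ndufv3, an accessory subunit of the NADH-oxidizing tip, which read 9.75, 9.47 and 9.74 in WT thymus and 8.62, 8.58, 8.59 and 8.75 in WT spleen. All 4 spleen arrays lay below all 3 thymus arrays. It fell by 1.02 (SE 0.08; 2.03-fold, adjusted p = 1.92e-07 in limma).

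Ndufs4, an accessory subunit whose loss blocks completion of the complex and causes Leigh syndrome in patients, read 11.77, 12.10 and 11.80 in WT thymus and 11.02, 10.99, 10.99 and 10.68 in WT spleen. The groups were far apart, and the fall was 0.97 (SE 0.15; 1.96-fold, adjusted p = 7.22e-05 in limma). Ndufs5, a small accessory subunit, read 8.83 on each of the 3 WT thymus arrays and 8.09, 8.08, 8.02 and 8.07 in WT spleen, a fall of 0.76 (SE 0.08; 1.69-fold, adjusted p = 1.40e-06 in limma). Ndufa6, an accessory subunit of the matrix arm that binds the mitochondrial acyl carrier protein, moved the other way. It read 8.69, 9.13 and 8.65 in WT thymus and 9.74, 9.50, 9.71 and 9.67 in WT spleen. Thymus WT replicate 7 was the highest thymus array and still lay below all spleen arrays. The rise was 0.83 (SE 0.11; 1.78-fold, adjusted p = 1.38e-05 in limma).

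The assembly factors of complex I, which help to build it and are not part of the finished enzyme, were split, with 3 of 7 higher and 3 lower. Ndufaf6 rose from 6.22, 6.30 and 6.42 in WT thymus to 7.01, 6.99, 6.99 and 7.05 in WT spleen (0.70, SE 0.05; 1.62-fold, adjusted p = 5.38e-08 in limma). Ndufaf4 rose from 7.06 on each WT thymus array to 7.68, 7.70, 7.68 and 7.68 (0.62, SE 0.04; 1.54-fold, adjusted p = 7.98e-09 in limma). The gain of Ndufaf6 was larger than the spread of either group, although its thymus levels lay below the filter level. Ndufaf6 exceeded that level only on the 9 spleen arrays, so it was tested only through the tissue where it was higher. For Ndufaf4 the repeated deposited values left almost no spread, so its gain cannot be weighed against the spread. Named after their values were seen, Ndufaf7, a methyltransferase that acts on a core subunit, also rose (0.35), and Ndufaf1, Ndufaf3 and Ndufaf5 fell by 0.50, 0.40 and 0.62.

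Of complex II, which is also an enzyme of the citric acid cycle, 3 of 4 subunits fell by small amounts. Sdhd, a membrane anchor, read 9.02, 9.32 and 9.09 in WT thymus and 8.78, 8.78, 8.90 and 8.89 in WT spleen, which is lower on every spleen array (fell by 0.31, SE 0.07; adjusted p = 0.00168 in limma). Sdhc, the other anchor, read 10.12 on each WT thymus array and 9.997, 9.94, 9.78 and 9.96 in WT spleen (fell by 0.20, SE 0.05; adjusted p = 0.00650 in limma). Sdhb, the iron-sulfur subunit, read 9.70, 9.65 and 9.70 and then 9.54, 9.51, 9.53 and 9.60 (fell by 0.14, SE 0.04; adjusted p = 0.0139 in limma). Sdha, the flavoprotein that oxidizes succinate, read 10.37, 10.59 and 10.32 in WT thymus and 10.69, 10.49, 10.48 and 10.53 in WT spleen, and its difference of 0.12 did not pass (adjusted p = 0.138 in limma). Without thymus WT replicate 7 that difference was 0.20 (adjusted p = 0.0142). After quantile normalization the calls of Sdhb (-0.03, adjusted p = 0.632) and Sdhc (-0.07, adjusted p = 0.246) were lost and Sdha passed (0.24, adjusted p = 0.00502), so the lean of this complex depended on the scaling.

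Complex III had the smallest share of members called of the 5 complexes, 3 of 8. Uqcr10, a small subunit, read 8.32, 8.35 and 8.11 in WT thymus and 8.42, 8.67, 8.72 and 8.76 in WT spleen. All spleen arrays lay above all thymus arrays, the nearest by little, and the rise was 0.38 (SE 0.11; adjusted p = 0.00649 in limma). Uqcrh, the hinge protein that holds cytochrome c1, rose by 0.19 (SE 0.07; adjusted p = 0.0335 in limma), a call that 4 of the fits with 1 WT array left out did not keep (thymus WT replicates 38 and 32, spleen WT replicates 37 and 34; 0.13 to 0.21, adjusted p = 0.0517 to 0.175). Uqcrc2, a core protein, fell from 11.54, 11.57 and 11.53 to 11.34, 11.26, 11.25 and 11.35 (fell by 0.25, SE 0.06; adjusted p = 0.00172 in limma).

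Complex IV holds subunits used in most tissues and isoforms restricted to some of them, which catalyse the same reaction. Of 10 broadly used members, 4 rose and 0 fell, and of 6 tested isoforms known from muscle, heart, lung or testis, 2 rose and 3 fell. Cox8a, the common form of the smallest subunits, read 10.89, 10.96 and 10.80 in WT thymus and 11.61, 11.55, 11.48 and 11.52 in WT spleen. The gap between the groups was several times their spread, with a rise of 0.65 (SE 0.06; 1.57-fold, adjusted p = 3.28e-07 in limma). Cox7b rose from 11.86, 11.76 and 11.74 to 12.21, 12.26, 12.16 and 12.19 (0.41, SE 0.06; adjusted p = 2.48e-05 in limma). Cox7a2l, known as a factor that joins complexes III and IV into supercomplexes, rose by 0.36 (SE 0.08, adjusted p = 0.00141 in limma). Whether its protein has that role in these mice was not measured. Cox5a, named after its value was seen, rose by 0.40. The common forms Cox4i1 (-0.10), Cox6a1 (-0.05), Cox6b1 (-0.18) and Cox7a2 (-0.10) did not pass.

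Of the isoforms, Cox6b2, the testis form of a subunit on the outer face of complex IV, moved most. It read 7.75, 7.67 and 7.77 in WT thymus and 7.27, 6.98, 7.08 and 6.97 in WT spleen, below every thymus array, and fell by 0.66 (SE 0.06; 1.58-fold, adjusted p = 8.79e-07 in limma). Cox7a1, a heart and muscle form, fell by 0.33 and Cox4i2, a lung form, by 0.22, whereas the muscle forms Cox6a2 and Cox8b rose by 0.30 and 0.28 (adjusted p between 8.51e-05 and 0.00204 in limma). Cox8c, a testis form, did not pass (0.03). Cox6a2 read 8.17 and Cox7a1 7.16 on every thymus array of both genotypes, and Cox8b read 6.66 on every WT thymus array. The SE and p-values of these isoforms are therefore less certain than printed. The highest isoform value on any array was 8.52, for Cox6a2, so that all of these changes took place at low signal. The levels of Cox7a1 in spleen and of Cox8b in thymus were at about the filter level of 6.76. Cox8b exceeded that level only on the 9 spleen arrays, so it was tested only through the tissue where it was higher. Ndufa4, named for complex I and now counted by most as a part of complex IV, did not pass (0.19, adjusted p = 0.133 in limma). Its paralogue Ndufa4l2, a hypoxia-responsive gene, read 6.39 on each WT thymus array and 6.89, 6.87, 6.80 and 6.84 in WT spleen (0.46, SE 0.05, adjusted p = 2.74e-06 in limma). Ndufa4l2 exceeded the filter level on 7 arrays, all of spleen. It was thus tested only through the tissue where it was higher, at a signal near that level.

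**Figure D2:**
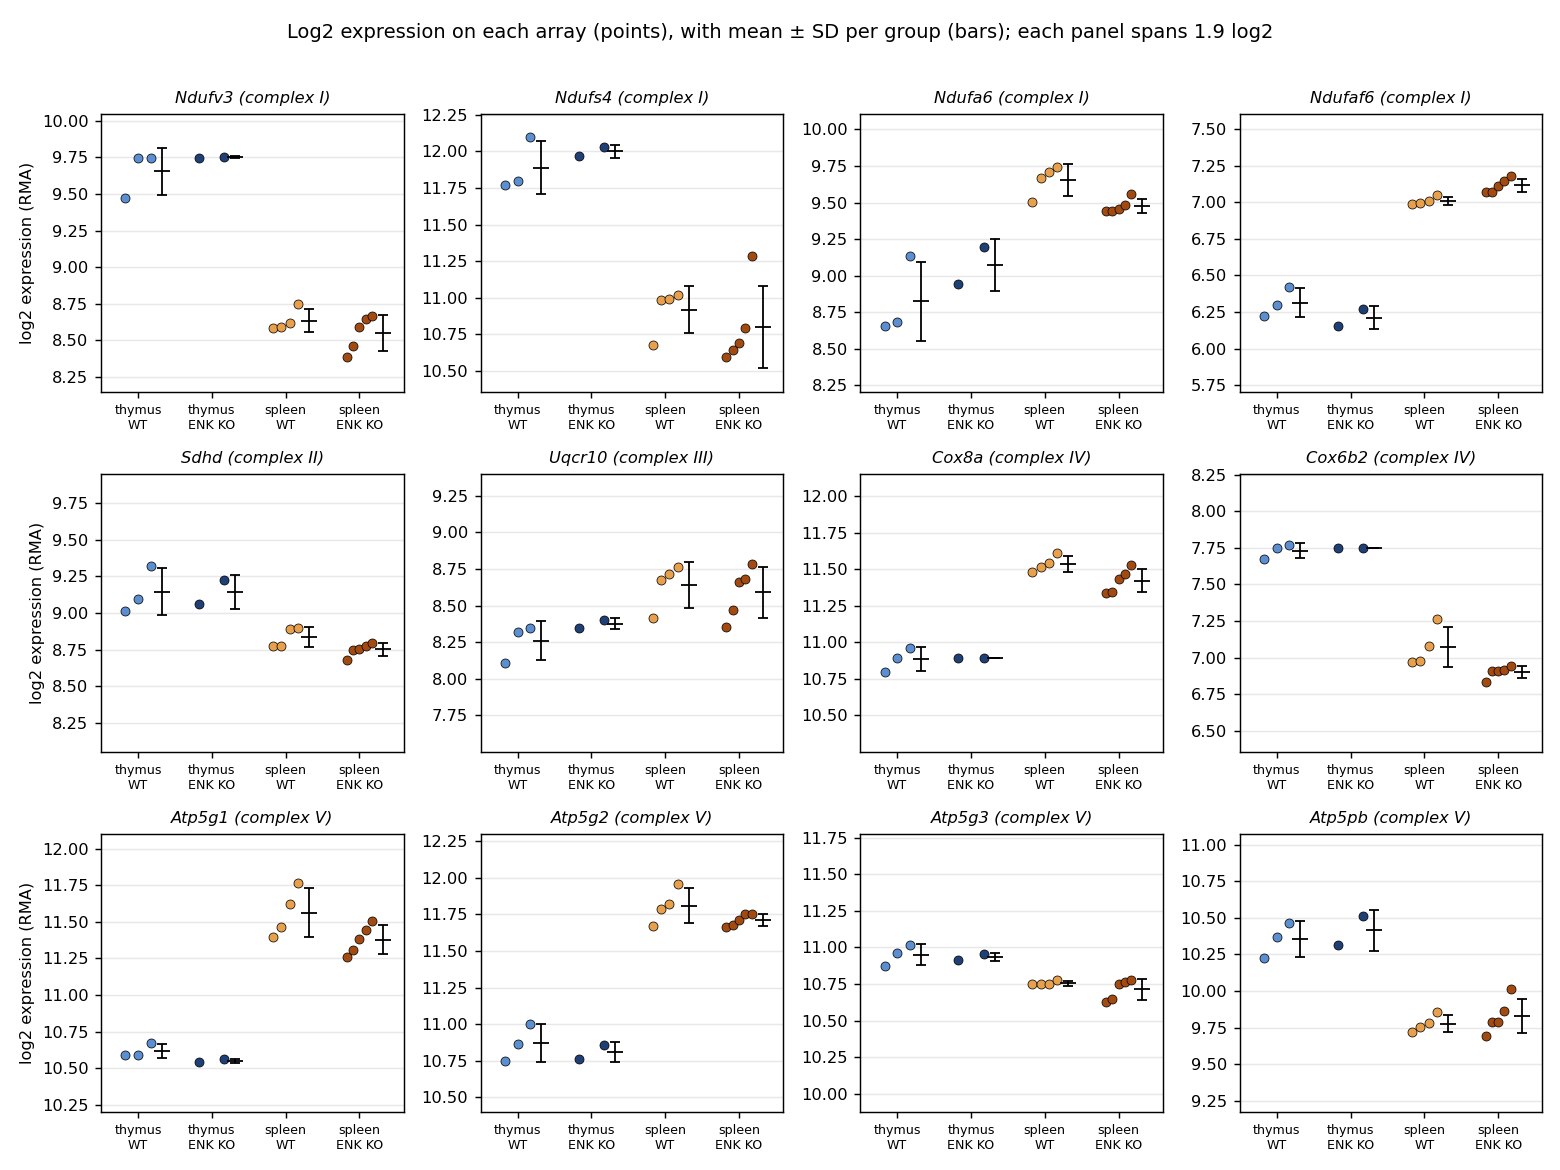
Log2 expression of 12 members on each of the 14 arrays, by group (thymus WT n = 3, thymus ENK KO n = 2, spleen WT n = 4, spleen ENK KO n = 5); points are arrays, sorted by value, bars are mean ± SD, and every panel spans the same range of log2 units. Ndufv3, Ndufs4, Sdhd, Cox6b2, Atp5g3 and Atp5pb are lower in both spleen groups than in both thymus groups, Ndufa6, Ndufaf6, Cox8a, Atp5g1 and Atp5g2 are higher, and Uqcr10 is separated in WT and overlaps in ENK KO.

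Markers of dividing cells moved with the same contrast. Of 15 mitotic genes measured, 15 were lower in WT spleen, and the mean of the list was 8.20 to 8.66 in WT thymus, 8.73 to 8.98 in ENK KO thymus and 6.53 to 6.80 over all spleen arrays. B cell markers had a list mean of 6.69 to 6.80 in WT thymus and 7.59 to 8.14 in WT spleen, with 3 of 5 higher, against 30.5% of all genes. The list means of red cell genes (2 of 3 called higher), platelet genes (2 of 4) and myeloid genes (3 of 6, with 1 lower) were also higher in WT spleen. Those of natural killer cell genes overlapped, although the 1 gene of that list that was tested was called higher (0.53). Those of thymic stroma genes were lower, with 1 of 3 called lower. The part of cell division, or of other cells in the sorted fractions, in the differences of the respiratory genes was not tested.

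Genes that build or regulate the chain, from lists outside the symbol rule, were also split in WT. The counts below stand against 30.5% of all genes higher and 38.2% lower in this comparison, so a split of this kind is not particular to the lists. Among assembly genes of complexes III and IV, 8 rose and 11 fell of 24, with Cox10, which makes heme for complex IV, up by 0.69 (SE 0.05; adjusted p = 1.11e-07 in limma) and Uqcc3 down by 0.83 (SE 0.09; adjusted p = 2.12e-06). Among other assembly genes of complexes I, II and V, 6 rose and 3 fell of 16. Tmem126a rose by 1.45 (SE 0.11; 2.74-fold, adjusted p = 1.21e-07 in limma), and Atpif1, the inhibitor that binds the ATP synthase when it runs backwards, fell from 12.21 ± 0.12 (SD, n = 3) to 10.80 ± 0.12 (SD, n = 4), which is 2.66-fold lower (adjusted p = 2.95e-08 in limma). Of 19 regulators of mitochondrial biogenesis, 5 rose and 8 fell. Myc rose by 3.02 (SE 0.12; adjusted p = 2.74e-10 in limma) and Pprc1, a coactivator of the PGC-1 family, by 1.35, whereas Nrf1, which encodes the factor whose core was searched above, fell by 0.85 and Gabpa, an ETS factor of the same promoters, by 0.68. Of the subunits encoded by mitochondrial DNA, 2 were measured: COX2 fell by 0.31 (SE 0.04; adjusted p = 3.70e-05 in limma), and ND3 did not pass.

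The same tissue contrast in ENK KO mice used no array of the WT contrast, although both were fitted with 1 common spread. There, 56 of 88 members were called, 18 higher and 38 lower, against 64.4% of all genes (27.4% higher and 37.1% lower). The groups did not overlap for 20 members higher and 39 lower (29.9% and 40.7% of all genes). Of the members called higher, 17 were shared, which is 85.0% of the 20 in WT and 94.4% of the 18 in ENK KO. Of those called lower, 31 were shared, which is 93.9% of the 33 in WT and 81.6% of the 38 in ENK KO. Of the 88, 0 were called in opposite directions, and 76 had the same sign whether called or not. The matching shares over all genes were not counted. As 68.6% of all genes were called in WT and 64.4% in ENK KO, such sharing is not shown to be particular to the members. The medians by complex were -0.21, -0.18, -0.04, -0.08 and -0.004 for complexes I to V. Without replicate 28, 18 members were higher and 35 lower, against 65.0% of all genes called, and the medians were -0.20, -0.16, -0.04, -0.02 and -0.005; that of complex IV thus moved from -0.08 to -0.02. The 6 largest differences were those of Ndufv3 (-1.20, SE 0.09), Ndufs4 (-1.20, SE 0.16), Ndufaf6 (0.90, SE 0.05), Atp5g2 (0.90, SE 0.08), Cox6b2 (-0.85, SE 0.07) and Atp5g1 (0.83, SE 0.09).

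By complex, 8 members of complex I rose and 23 fell in ENK KO spleen, 0 rose and 3 fell in complex II, 0 rose and 2 fell in complex III, 6 rose and 3 fell in complex IV, and 4 rose and 7 fell in complex V. Ndufv3 read 9.74 and 9.75 in ENK KO thymus and 8.66, 8.46, 8.65, 8.59 and 8.39 in ENK KO spleen, without overlap. Ndufs4 read 11.97 and 12.03 in thymus and 10.80, 10.69, 10.59, 10.64 and 11.28 in spleen, where replicate 3 stood above the others and still below both thymus arrays. Cox6b2, the testis isoform, read 7.75 on both thymus arrays and 6.94, 6.91, 6.92, 6.83 and 6.91 in spleen.

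Cox8a read 10.89 on both ENK KO thymus arrays and 11.47, 11.53, 11.34, 11.35 and 11.43 in ENK KO spleen, a rise of 0.53. Ndufa6 read 8.95 and 9.20 in thymus and 9.48, 9.44, 9.56, 9.46 and 9.44 in spleen. Its spleen arrays lay close together and above both thymus arrays, the nearer of them by less than in WT. Atp5pb read 10.32 and 10.51 in thymus and 9.79, 9.86, 9.69, 9.79 and 10.01 in spleen, a fall of 0.59, so that the b subunit of the stalk was lower in spleen in both genotypes.

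Called in WT and not in ENK KO were 5 members, named after their values were seen: Atp5d, Uqcr10 and Uqcrh, which were higher in WT spleen, and Ndufa12 and Ndufa5, which were lower. Called in ENK KO and not in WT were 8, of which Ndufs7 was higher in spleen. The other 7 were lower: Ndufv1, Ndufb6, Ndufb10 and Ndufb11 of complex I, the Rieske iron-sulfur protein Uqcrfs1 of complex III, and the stalk subunits Atp5h and Atp5o. With these, 4 of the 4 members of the peripheral stalk fell in ENK KO, by the brightest probe set of each. For Atp5h this choice matters, since its other probe sets differed in WT by 0.06 (mean level 10.13) and 0.88 (mean level 4.74), against -0.17 for the one used. Their differences in ENK KO were not examined. A call in 1 genotype only does not show a difference between them.

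Whether the tissue difference itself differed between genotypes was tested by the interaction term. No member passed (0 of 88 in limma, against 0.00733% of all genes), and 5 had an unadjusted p under 0.05 (2.99% of all genes did), 4 with a lower difference in ENK KO and 1 with a higher one (1.73% and 1.26% of all genes). The largest of these in size was Ndufa6, whose rise was 0.83 in WT and 0.40 in ENK KO, a difference of -0.43 (SE 0.16, unadjusted p = 0.0183, adjusted p = 1.00). Ndufaf6 differed by 0.21 (unadjusted p = 0.0152) and Atp5h, a subunit of the peripheral stalk, by -0.28 (unadjusted p = 0.0215). Without replicate 28 these 3 values were -0.45, 0.22 and -0.27, each with an adjusted p of 0.978 in limma, and 0 members passed. These values do not show that the tissue differences were alike, only that this number of arrays did not separate them.

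**Figure D3:**
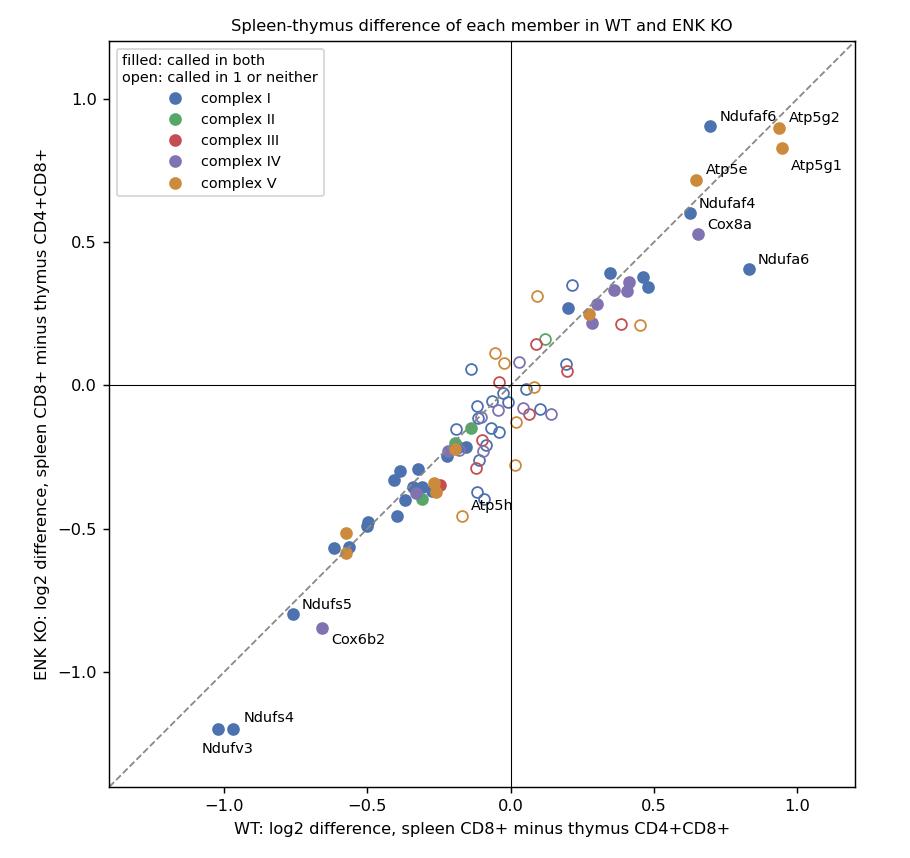
Log2 difference between spleen CD8+ T cells and thymus CD4+CD8+ cells in WT (horizontal axis; 4 and 3 arrays) and in ENK KO (vertical axis; 5 and 2 arrays) for the 88 tested members, coloured by complex; filled points were called in both genotypes, open points in 1 or neither, and the dashed line marks equal differences. The filled points, 17 higher and 31 lower in both, lie near the line, and Ndufa6 lies below it at 0.83 and 0.40. Points were filled by their calls, so their place near the line is not a test of how alike the genotypes were.

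Within the thymus, ENK KO and WT were not separated for any member. Of 88 members 0 were called in limma, against 0.0147% of all genes, and 5 had an unadjusted p under 0.05, 1 higher and 4 lower (3.53% of all genes did, 1.8% higher and 1.73% lower). The groups did not overlap for 1 member that was higher and 8 that were lower (4.04% and 5.21% of all genes). Differences below 0 were found for 47 of the 88, and 54.1% of all genes had one. The median was -0.01 for the members. By the smallest unadjusted p in limma, the members higher in ENK KO were Atp5h (0.22, unadjusted p = 0.0253), Ndufv1, the core subunit that binds NADH (0.19, unadjusted p = 0.0706), and Ndufa6 (0.25, unadjusted p = 0.0730). By the same limma p, those lower were Uqcr11, a small subunit of complex III (-0.34, unadjusted p = 0.0223), Atp5j2, the f subunit of the ATP synthase (-0.25, unadjusted p = 0.0292), and Ndufs7, a core iron-sulfur subunit (-0.27, unadjusted p = 0.0431); the adjusted p of all 6 was 1 in limma. Uqcr11 read 9.67, 9.46 and 9.58 in WT thymus and 9.34 and 9.13 in ENK KO thymus, so that these groups did not overlap. The 95% confidence intervals had a median half-width of 0.19, and for 81 of the 88 members the whole interval lay within 0.5 of 0, a fold of 1.41. Mitotic genes were higher in ENK KO thymus for 15 of 15, with 0 called and 12 at an unadjusted p under 0.05, and ENK KO replicate 1 came from an animal of 2 months; the part of either in these values was not tested.

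Within the spleen, 0 of 88 members were called as well (0.00733% of all genes were), and the lowest adjusted p was 0.582 in limma. Yet the differences leaned one way: 73 of 88 members (83.0%) were lower in ENK KO, against 55% of all genes, with a median of -0.07 against -0.01. At an unadjusted p under 0.05 there were 13 members, 2 higher and 11 lower (8.37% of all genes passed this, 3.45% higher and 4.93% lower). The groups did not overlap for 1 member that was higher and 5 that were lower (0.894% and 0.814% of all genes). In complex III 8 of 8 lay below 0, in complex IV 14 of 16, in complex V 14 of 17, in complex I 34 of 43 and in complex II 3 of 4. The lean was not confined to the members. Of the mitochondrial lists outside the symbol rule, 53 of 77 ribosomal proteins (median -0.04) and 8 of 9 carriers (median -0.09) lay below 0. In other lists it was 8 of 13 citric acid cycle genes, 10 of 19 biogenesis regulators and 5 of 12 coenzyme Q genes. Of the other assembly genes of complexes I, II and V, 7 of 16 lay below 0. Genes measured on the same array are not independent of each other, so these counts are a description and not independent evidence. Without replicate 28, 67 of 88 (76.1%) lay below 0, against 53.9% of all genes, with a median of -0.06, and 5 members (9.72% of all genes in that fit) had an unadjusted p under 0.05, 4 of them lower, so that the members' share was then below that of genes at large. Without the animals aged 2 months, 74 of 88 lay below 0 (54% of all genes), with a median of -0.09, and 15 (6.58% of all genes) had an unadjusted p under 0.05, 15 of them lower; 0 were called in either fit.

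The members with the smallest unadjusted p in this comparison had small differences. Ndufb10, an accessory subunit of complex I, read 7.81, 7.83, 7.86 and 7.85 in WT spleen and 7.71, 7.64, 7.71, 7.51 and 7.72 in ENK KO spleen. All ENK KO arrays lay below all WT arrays, with a difference of -0.18 (SE 0.05, unadjusted p = 0.00172, adjusted p = 0.582 in limma). Cox6b2 read 7.27, 6.98, 7.08 and 6.97 and then 6.94, 6.91, 6.92, 6.83 and 6.91, also without overlap but close (-0.17, unadjusted p = 0.00825). Uqcr11 read 9.80, 9.73, 9.59 and 9.51 in WT and 9.29, 9.40, 9.12, 9.51 and 9.59 in ENK KO, where replicate 28 was the lowest and the groups overlapped (-0.28, unadjusted p = 0.0119). The members higher in ENK KO with the smallest limma p, Ndufaf6 (0.11, unadjusted p = 0.0316), Ndufa12 (0.10, unadjusted p = 0.0353) and Ndufaf2 (0.11, unadjusted p = 0.0759), belong to complex I or its assembly. The adjusted p of these 5 lay between 0.595 and 0.621. Without replicate 28 the differences were -0.19 for Ndufb10, -0.18 for Cox6b2, -0.21 for Uqcr11, 0.12 for Ndufaf6, 0.07 for Ndufa12 and 0.11 for Ndufaf2, with adjusted p between 0.433 and 0.575 in limma. The median half-width of the 95% confidence intervals was 0.14, and 87 of the 88 intervals lay within 0.5 of 0.

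**Figure D4:**
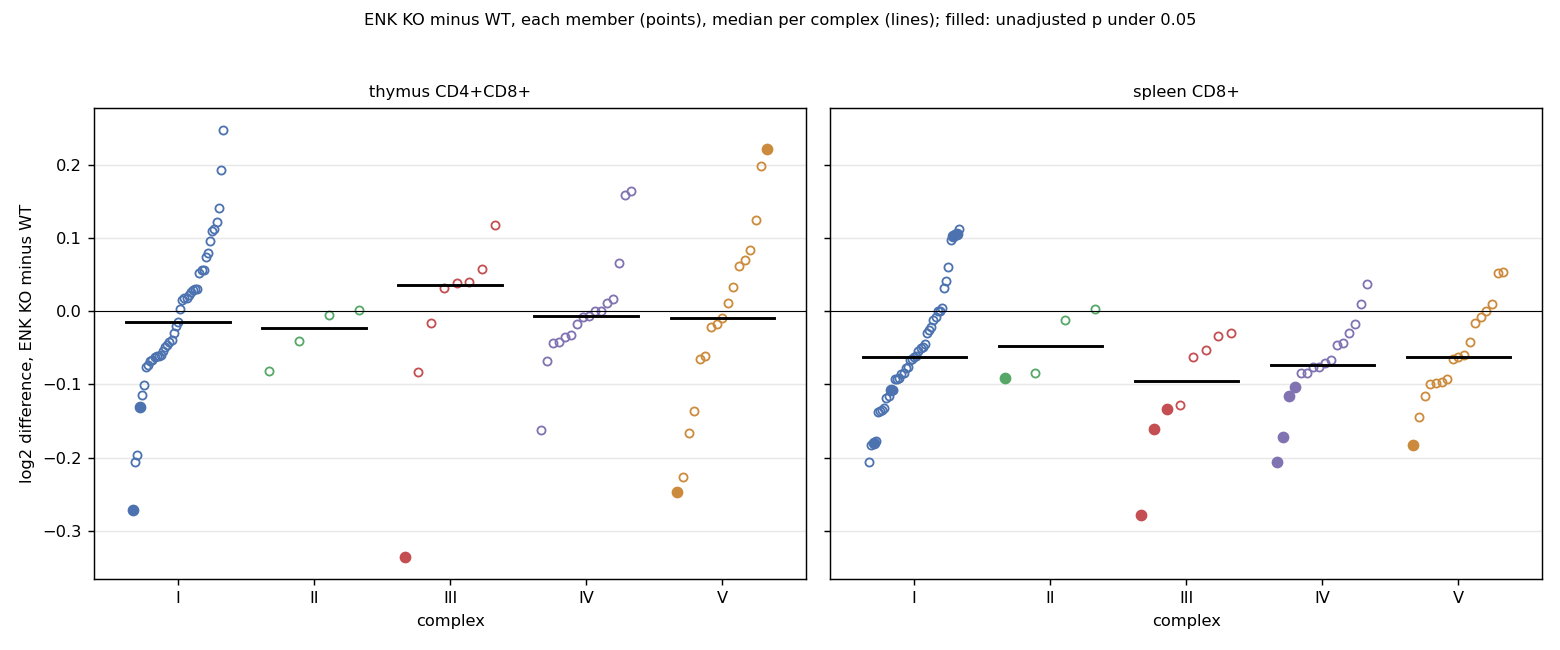
Log2 difference between ENK KO and WT for each of the 88 tested members, by complex, in thymus (left; 2 against 3 arrays) and spleen (right; 5 against 4 arrays); lines are medians, and filled points had an unadjusted p under 0.05. In spleen 73 of the 88 points and the medians of all 5 complexes lie below 0; no point passed the adjusted threshold in either tissue.

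Per array, the mean of all tested members relative to the WT thymus mean was -0.03 to -0.05 on the 4 WT spleen arrays, which lay close together. On the ENK KO spleen arrays it was -0.09, -0.10, -0.15, -0.14 and -0.02, so that replicate 3 lay above all WT arrays and the other 4 below them. Replicates 3 and 6 both came from animals of 2 months labelled female, and replicate 6 was among those below (-0.10). The spread was wider among thymocytes, where WT replicate 7 stood at 0.08 and replicates 38 and 32 at -0.02 and -0.06; it was the highest WT thymus array for all 5 complexes. For complex I, all 9 spleen arrays (-0.22 to -0.08) lay below all 5 thymus arrays (-0.05 to 0.08), whereas for complexes III, IV and V the tissues overlapped. Markers of other cells were also read in spleen, where the list mean of platelet genes was 7.41 to 7.54 in WT and 7.03 to 7.30 in ENK KO, with 4 of 4 below 0 and 1 of them called lower. The list mean of B cell genes was 7.59 to 8.14 and 6.87 to 8.04, with 5 of 5 below 0 and 0 called, and that of red cell genes 7.31 to 7.71 and 6.94 to 7.55, with 3 of 3 below 0 and 0 called; both of these ranges overlapped between genotypes. That of myeloid genes was 6.89 to 6.95 and 6.72 to 7.46, with 3 of 6 below 0 and 0 called. Their part in the lean of the respiratory genes was not tested.

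**Figure D5:**
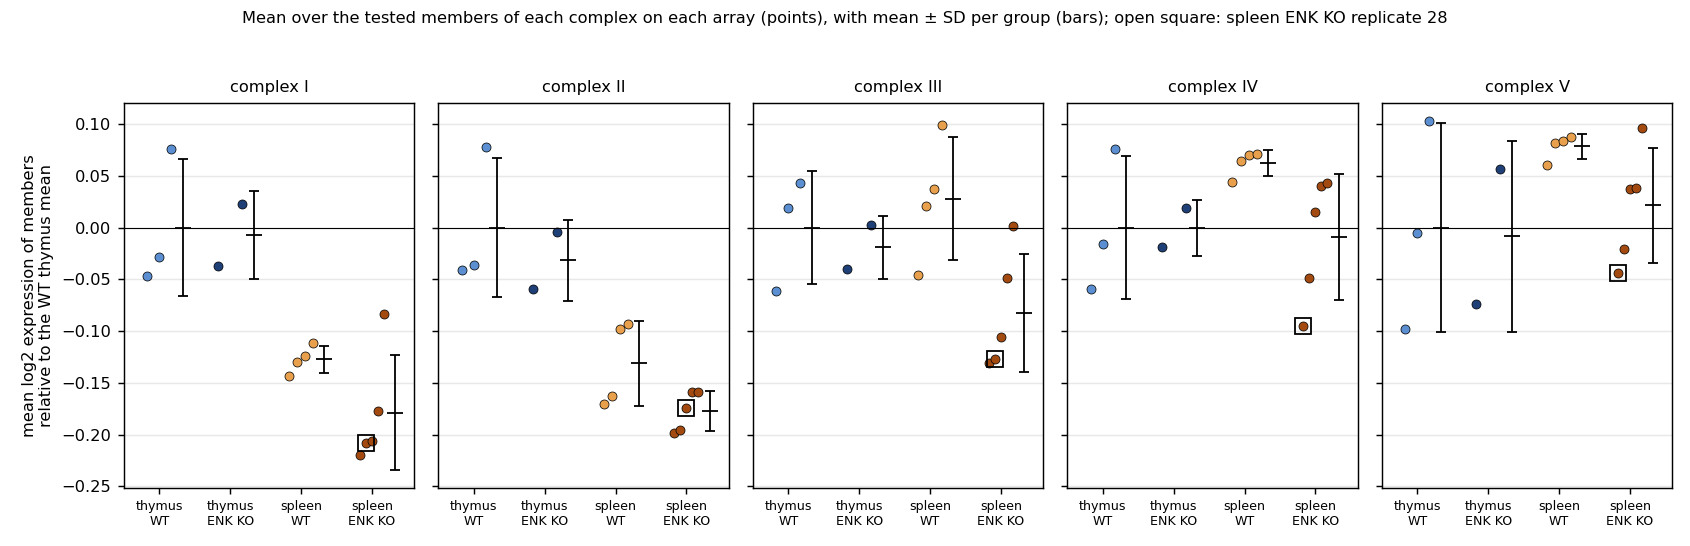
Mean log2 expression of the tested members of each complex on each of the 14 arrays, relative to the mean of the 3 WT thymus arrays, by group; points are arrays, bars are mean ± SD, and the open square is spleen ENK KO replicate 28. In complexes I and II all spleen arrays lie below all thymus arrays, and in complexes IV and V replicate 28 is the lowest spleen array.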

How the data were processed

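Expression in 14 samples of flow-sorted T cells was read on 1-colour Affymetrix arrays. The deposited table holds log2 values that the authors made with RMA, per the submitters' processing notes; neither the version of RMA nor a common or separate run over the arrays is given in the sources used here. Per the labels' protocols, 300 ng of total RNA was amplified and labelled for each array, and the number of arrays limits the precision. Of 28213 probe sets, 21640 carried 1 gene symbol in the platform annotation, 1321 several and 5252 none; those with 1 symbol were used, 1 probe set per gene, the one with the highest mean. All 89 members matched RefSeq (GRCm38.p6) by gene ID. Protein sequences were not used here.

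A gene was tested if 2 or more arrays exceeded 6.76, the 40th percentile of the whole table (13641 genes). A model with 1 mean per group over all 14 arrays was fitted in limma 3.58.1 (R 4.3.3; eBayes with trend) with Benjamini-Hochberg adjustment over the tested genes; a gene is called at an adjusted p under 0.05. Tables and figures were made in Python 3.11.15. The script was tested on simulated data, in which it recovered 81% of genes shifted by 0.5 in the WT tissue comparison, 67% in the thymus and 85.5% in the spleen genotype comparison.

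Groups were taken from the labels. The members, lists and rules were chosen with earlier results of these data known. Named in the WT comparison were the 2 members with the largest called difference in each direction per complex (3 in complex I), the Sdh genes and the isoform families; in the genotype comparisons and the interaction, the 3 with the smallest unadjusted p (per direction for genotype); and of each other list, up to 2 called genes per direction. Alternatives were another filter, normalization, probe set summary, variance model, array weights, sample set, covariates and call rule, and leaving out each array in turn.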

Additional observations from a re-analysis of the deposited data

Results flagged for a closer look

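Values that stood apart from the rest of their spleen group were looked for in 96 series of 4 or 5 values, 84 of named genes and 12 of means over a complex or all members, and 10 were found, each of a named gene, by the ratio of the gap to the nearest value over the whole range; chance gives about 1 in 20. In WT spleen these were Atp5g3 in replicate 34 (10.78, others 10.75 to 10.75), Cox8b in replicate 40 (7.07, others 6.89 to 6.91), Cox8c in replicate 37 (7.35, others 7.52 to 7.55), Ndufaf4 in replicate 37 (7.70, others at 7.68) and Ndufs4 in replicate 22 (10.68, others 10.99 to 11.02). In ENK KO spleen they were Cox4i1 in replicate 6 (9.27, others 9.34 to 9.35), Cox7a2 in replicate 25 (8.39, others 8.72 to 8.82) and, in replicate 28, Ndufa4 (8.07, others 8.37 to 8.47), Ndufaf4 (7.57, others 7.68 to 7.71) and Sdhc (9.84, others 9.92 to 9.94). Replicate 28 thus gave 3 of the 10. For Atp5g3 and Ndufaf4 in WT spleen the gap was 0.03 or less, and the other arrays carried nearly or exactly the same deposited value.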

How the results depend on the processing

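No paired analysis was possible because no replicate number occurs in more than 1 group. Of 729 alternative values of counts and medians, 701 stayed near the value reported. Near means a count within 1.5-fold, or a median closer than the SD of the complex mean among arrays of a group. The sign was not part of this rule, so medians near 0 could change sign and still be counted as near. Of 1236 alternative values for named genes, 1213 kept their sign and their call, 10 no longer passed, 8 newly passed and 5 changed sign. The cause was not tested. With a call at an unadjusted p under 0.05 and a fold of at least 1.5, 12 members were called in the WT and 10 in the ENK KO tissue comparison; leaving out single arrays gave 46 to 54 and 43 to 59 calls. After quantile normalization the WT medians were -0.051 in complex II, 0.080 in III and 0.096 in V, and the ENK KO medians of complexes I to V were -0.13, -0.083, 0.011, -0.00955 and 0.083. The WT median of complex IV was 0.088 with the mean of probe sets and 0.13 with array weights. Without the 2-month-old animals the ENK KO medians of complexes IV and V were -0.027 and 0.062, and without replicates 28 (spleen ENK KO) and 22 (spleen WT), or without 28 alone, that of complex IV was -0.021. The fit without the 2-month-old animals kept replicate 29 as the only ENK KO thymus array and dropped every ENK KO sample labelled female. Leaving out single arrays moved the WT medians from -0.18 to -0.11 (complex I), -0.015 to 0.16 (IV) and -0.083 to 0.086 (V), and the ENK KO medians from -0.26 to -0.15 (I), -0.12 to 0.022 (IV) and -0.093 to 0.074 (V). In ENK KO, both ends for complexes I and V and the upper end for IV came without an ENK KO thymus array, which left the other alone in its group. It moved the thymus genotype median of complex II from -0.065 to 0.017, and the interaction median of complex V from -0.10 to -0.00086. In WT, Cox4i1 turned to 0.038 with array weights and Cox6a1 to 0.085, or 0.059 after quantile normalization; leaving out single arrays moved Cox4i1 from -0.24 to 0.086 and Cox6a1 from -0.20 to 0.13, both highest without thymus WT replicate 7. Most members with small differences are within the error of 14 arrays, and transcripts near the filter level of 6.76 have the least signal over background.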

Other observations

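Other mitochondrial gene lists also moved in both directions between WT thymus and WT spleen. The counts here and in the next paragraph stand against 30.5% of all genes higher and 38.2% lower in WT spleen. None of the listed genes was called in a genotype comparison by limma (0 of each list). Of all genes, 0.0147% were called in thymus and 0.00733% in spleen. In the citric acid cycle, which feeds complexes I and II, 3 genes rose and 4 fell of 13, with Suclg2, a subunit of succinyl-CoA ligase, up by 1.11 and Idh2, an isocitrate dehydrogenase that makes NADPH, down by 1.15. In the making of coenzyme Q, 6 rose and 2 fell of 12, with Coq2 up by 0.78 and Coq5 by 0.62. Among carriers of the inner membrane, 3 rose and 2 fell of 9. The adenine nucleotide carriers that exchange ATP for ADP moved apart, Slc25a4 rising by 0.71 and Slc25a5 falling by 0.42.

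Of 6 genes that handle superoxide and its products, 4 rose and 1 fell, with Txnrd2, the mitochondrial thioredoxin reductase, up by 0.54. Nnt, known for an enzyme that makes NADPH with the proton gradient, fell by 1.10. Whether these mice make a working protein from it was not measured. Of 77 mitochondrial ribosomal proteins, which translate the subunits encoded by mitochondrial DNA, 22 rose and 26 fell. Mrps18b (1.01) and Mrps15 (0.85) were among those that rose, and Mrps25 (-0.78) and Mrps11 (-0.56) among those that fell.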
